A study of Mus musculus with 2 samples.

Results

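Primary hepatocytes, isolated from livers of C57BL/6 mice and kept in culture, were profiled by RNA sequencing. There was 1 library from cells infected overnight with an adenovirus that carries HuR, whose gene is Elavl1, and 1 library from cells infected with an adenovirus carrying the control enzyme β-galactosidase (β-Gal). The authors deposited 1 FPKM value per gene and library, that is, reads adjusted for the length of the transcript and for sequencing depth. With 1 library per group no value has a replicate, and no test between the groups was possible. Elavl1 itself stood at 4480 FPKM in the HuR library against 9.67 FPKM in the β-Gal library, so the labels and the targeted gene go the same way.

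The genes described are Pld4, Wfikkn1, Gzmm, Zfp365, Ubap1l, Ccdc154 and 1700007K13Rik, 7 of the 20505 genes listed in both tables. They were picked by name from protein-coding genes that were nearly silent in the β-Gal library and stood above 10 FPKM in the HuR library. The choice therefore rests on the same values as the fold changes below, which are given as a description. It was not a complete set. Among 15175 listed protein-coding genes, 6100 had no more than 3.48 FPKM in the β-Gal library, the highest value among the 7 genes, and 43 of those 6100 (0.705%) were above 10 FPKM in the HuR library. The 7 genes are part of these 43. No gene was listed at 0 in the β-Gal table, so genes wholly silent in β-Gal cells and present in HuR cells were not analysed here.

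HuR binds AU-rich and U-rich stretches of RNA, mainly in 3′ untranslated regions (3′ UTRs) and introns, and is best known for stabilising the mRNAs it binds. The 7 genes are not typical liver genes, and their known roles lie in other cells. Pld4 is an exonuclease of endolysosomes that digests single-stranded nucleic acids and thereby limits their sensing, and Gzmm is a serine protease of the granules of natural killer cells. Wfikkn1 is a secreted protein with several protease inhibitor domains that binds the growth factors myostatin and GDF11. Zfp365 encodes a coiled-coil and zinc finger protein that binds DISC1 in neurons, and its human orthologue ZNF365 is a p53 target that protects fragile sites and telomeres. Ubap1l is a relative of UBAP1, a subunit of the ESCRT-I complex that sorts ubiquitinated membrane proteins. Ccdc154 is a coiled-coil protein whose loss causes osteopetrosis in mice. 1700007K13Rik is the gene now called Pierce1, a p53-induced gene whose protein lies inside the microtubules of motile cilia.

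By the ratio of FPKM, HuR cells exceeded β-Gal cells by 20.7-fold or more for each of the 7 genes. On the log2((HuR + 1)/(β-Gal + 1)) scale, which understates the change of low genes, they lay between 3.44 and 4.62 with a median of 4.07. By the same measure the median was -0.17 over 12905 compared genes, those reaching 1 FPKM in HuR or β-Gal cells. Of these, 5.35% were higher in HuR cells by 2-fold or more and 8.31% lower. The 7 of 7 genes past 2-fold follow from how they were chosen, and nothing is read from that count. With the median of all compared genes set to 0, higher genes made up 56.3% of the calls in both directions, against 39.2% as deposited. All 7 genes stayed past 2-fold under that shift, which multiplies every HuR value by 1.14 and so could only raise them.

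Values per library are given with 95% exact Clopper-Pearson intervals on the reads behind them, which cover counting error only. Reads were recovered from the steps of the FPKM values with implied totals of 17671387 reads for the HuR library and 18357017 reads for the β-Gal library. The gene with the highest level was 1700007K13Rik (ENSMUSG00000026831), at 110 FPKM (104 to 116) from 1241 reads in the HuR library and 3.48 FPKM (2.50 to 4.73) from 41 reads in the β-Gal library. The ratio was 31.4-fold (23.0 to 44.0). It took the gene to rank 1152 by level in HuR cells, against rank 9772 in β-Gal cells. It was the only one of the 7 with a β-Gal level above 2 FPKM, and among protein-coding genes it had the third highest log2 fold change.

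Wfikkn1 (ENSMUSG00000071192) stood at 49.8 FPKM (46.9 to 52.7) in the HuR library and 1.42 FPKM (0.986 to 1.99) in the β-Gal library, a 35.0-fold difference (24.9 to 50.7). For a length in whole bases its reads were at least 1144 in HuR and 34 in β-Gal cells, the smallest whole numbers that then fit both values. Pld4 (ENSMUSG00000052160) stood at 40.6 FPKM (38.5 to 42.8) from at least 1420 reads in the HuR library and 0.744 FPKM (0.490 to 1.08) from at least 27 reads in the β-Gal library, 54.6-fold higher (37.4 to 83.2). Gzmm (ENSMUSG00000054206) stood at 37.8 FPKM (35.1 to 40.7) from 719 reads in the HuR library and 1.32 FPKM (0.860 to 1.93) from 26 reads in the β-Gal library, 28.7-fold higher (19.4 to 44.3). Pld4 and Gzmm had overlapping intervals in the HuR library and could not be ordered there.

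Zfp365 (ENSMUSG00000037855) had the smallest ratio of the 7, at 20.8 FPKM (19.4 to 22.2) from 878 reads in the HuR library and 1.00 FPKM (0.728 to 1.34) from 44 reads in the β-Gal library. The ratio was 20.7-fold (15.3 to 28.7). Ubap1l (ENSMUSG00000086228) stood at 16.8 FPKM (15.3 to 18.6) from at least 411 reads in the HuR library and 0.631 FPKM (0.361 to 1.02) from at least 16 reads in the β-Gal library, 26.7-fold higher (16.2 to 47.1). Ccdc154 (ENSMUSG00000059562) had the lowest level in both libraries. It stood at 12.1 FPKM (11.0 to 13.2) from 498 reads in the HuR library and 0.0934 FPKM (0.0254 to 0.239) from 4 reads in the β-Gal library. Its ratio of 129-fold was the largest of the 7, and with 4 reads below it the interval ran from 50.2 to 477. That interval overlapped those of Pld4 and Wfikkn1 and lay above those of the other 4 genes. At the annotated mean length the interval of Ubap1l reached 51.9 and overlapped it, while that of Wfikkn1 ended at 46.0 and did not.

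**Figure D1:**
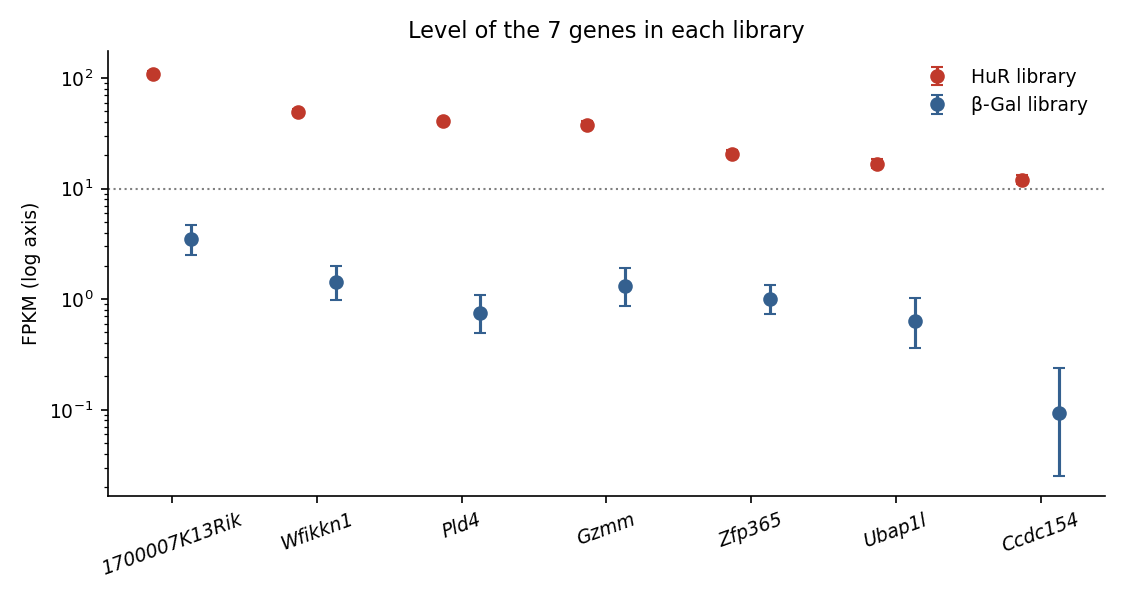
Level of each of the 7 genes in FPKM on a log axis, with the HuR library (red) left of the β-Gal library (blue). Bars are 95% exact counting intervals, the dotted line marks 10 FPKM, and all 7 genes lie above it in HuR and below 5 FPKM in β-Gal, with Ccdc154 lowest in both.

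For 4 of the genes the FPKM values matched the mean length of all annotated transcripts, which includes short forms. Per kilobase of the principal coding transcript, Zfp365 would stand at 11.7 in the HuR library in place of 20.8, 1700007K13Rik at 86.5 in place of 110, Gzmm at 31.6 in place of 37.8 and Ccdc154 at 11.7 in place of 12.1. Zfp365 and Ccdc154 are then level with each other. The fold between libraries does not depend on the length used.

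The pattern was shared by 36 other named protein-coding genes, with log2 fold changes of 1.55 to 4.78 and a median of 2.49. These genes were chosen by the same limits, so their fold changes too are a description. Cpm, a membrane carboxypeptidase gene, stood at 44.6 FPKM in HuR and 0.661 FPKM in β-Gal cells. Hic1, a transcriptional repressor, stood at 26.9 FPKM in HuR and 1.84 FPKM in β-Gal cells. Gp5, a platelet glycoprotein gene, stood at 25.8 FPKM in HuR and 2.33 FPKM in β-Gal cells. Sytl1, which links vesicles to Rab27, stood at 29.8 FPKM in HuR and 3.04 FPKM in β-Gal cells. Micall2 stood at 21.2 FPKM in HuR and 2.22 FPKM in β-Gal cells. Ggta1, the enzyme that makes the alpha-galactosyl epitope, stood at 16.3 FPKM in HuR and 2.06 FPKM in β-Gal cells. The small GTPase gene Rasl11a stood at 16.2 FPKM in HuR and 0.921 FPKM in β-Gal cells, and the apoptosis gene Pmaip1 at 14.9 FPKM in HuR and 0.741 FPKM in β-Gal cells.

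Mup1 at 59.6 FPKM in HuR and 2.77 FPKM in β-Gal cells, and Nme2 at 41.5 FPKM in HuR and 1.997 FPKM in β-Gal cells, complete the 10 genes of highest HuR level. Both are uncertain, since Mup1 has near-identical copies and Nme2 follows its relative Nme1 closely on the same strand. A few more of the 36, genes of restricted expression, were picked out once their values were known. Lag3, an inhibitory receptor of T cells, stood at 11.2 FPKM in HuR and 0.494 FPKM in β-Gal cells. Dppa3, a germ cell and oocyte gene, stood at 12.8 FPKM in HuR and 0.643 FPKM in β-Gal cells, and Adig, an adipocyte gene, at 14.8 FPKM in HuR and 1.47 FPKM in β-Gal cells. At the edge of the 10 FPKM limit, Necab2, Col11a2 and Ada lay just inside at 10.3, 10.4 and 10.6 FPKM in HuR cells and 1.59, 2.05 and 2.29 FPKM in β-Gal cells. Rac3, 9530053A07Rik and Best1 lay just outside at 9.98, 9.87 and 9.46 FPKM in HuR cells and 2.54, 0.408 and 0.274 FPKM in β-Gal cells.

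**Figure D2:**
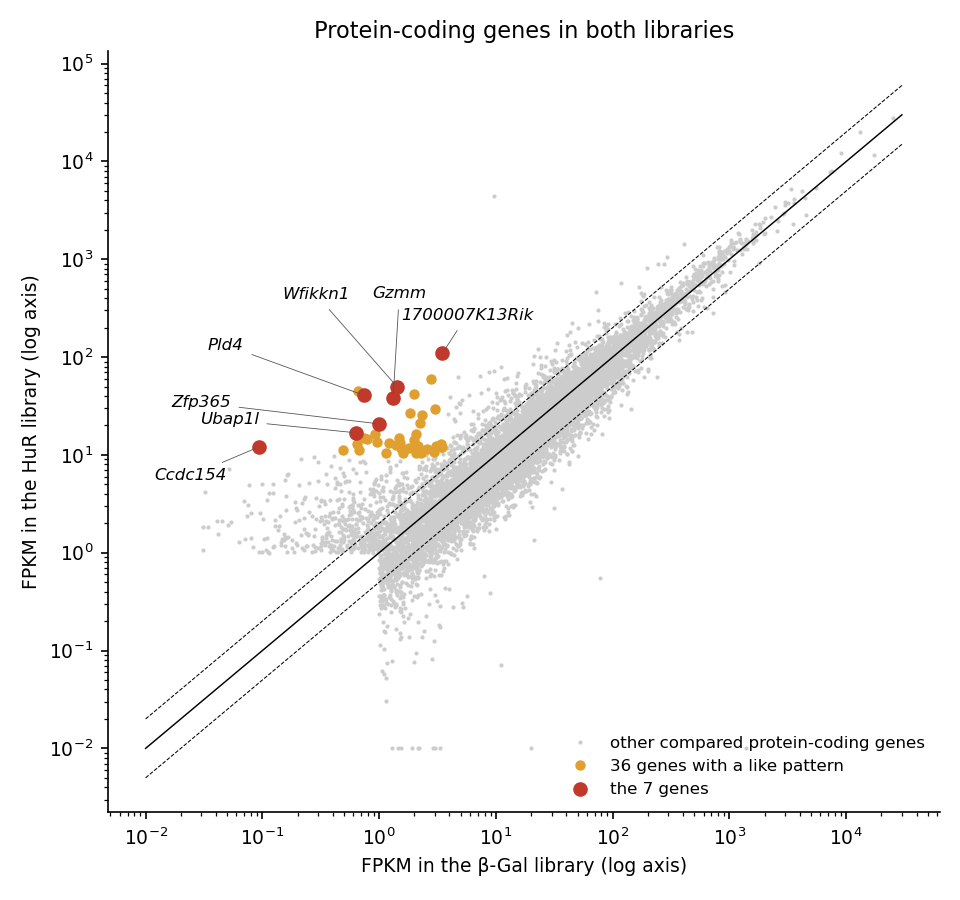
FPKM in the HuR library (vertical) against FPKM in the β-Gal library (horizontal) for compared protein-coding genes, on log axes, with values of 0 drawn at 0.01. The solid line marks equal levels and the dashed lines 2-fold. The 7 genes (red) and the 36 genes within the same limits (orange) lie above the main cloud.

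The 7 genes can be set beside other genes of low β-Gal level. Of 2025 compared protein-coding genes with no more than 3.48 FPKM in the β-Gal library, 14.0% passed 2-fold upward in HuR cells and 4.15% downward. Among them, 433 genes were below 1 FPKM in the β-Gal library and were compared only because their HuR value reached 1 FPKM, and 184 of these passed 2-fold upward. Of the other 1592 genes, 100 did. With 1 added to both values, a gene below 1 FPKM in β-Gal cells cannot pass 2-fold downward. All 84 genes past 2-fold downward therefore lie among the 1592, and the 2 shares of the 2025 are not alike. Pld4, Ubap1l and Ccdc154 are among the 433. At the far end of the range, 0.189% of all 11100 compared protein-coding genes were at least 8-fold higher on the log2 scale with the pseudocount, and the 7 genes are among those 21.

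Most relatives and pathway partners of the genes lay within 2-fold between the libraries. So did most compared genes, of which 5.35% were higher past 2-fold and 8.31% lower, so the counts below are a description. Of 3 other compared phospholipase D genes 0 passed 2-fold, and the nearest relative Pld3, also an endolysosomal exonuclease, stood at 58.8 FPKM in HuR and 59.5 FPKM in β-Gal cells. Pld2, a phospholipase D of the plasma membrane, stood at 22.4 FPKM in HuR and 31.5 FPKM in β-Gal cells. The other endosomal nucleic acid sensing genes had 0 of 10 past 2-fold, with log2 fold changes of -0.85 to 0.22. Among them the interferon regulatory factor gene Irf7 stood at 148 FPKM in HuR and 174 FPKM in β-Gal cells.

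Of 12 other genes on the granzyme and perforin list, 4 were listed in the tables. Gzma was the only other granzyme among them, so the level of the remaining granzymes in HuR cells is unknown. Gzma was listed at 0 in the HuR library and 0.124 FPKM in the β-Gal library, and perforin (Prf1), which opens the target membrane for granzymes, stood at 0.110 FPKM in HuR and 0.0265 FPKM in β-Gal cells. The protease Ctsc, which activates granzymes and is widely expressed, stood at 21.3 FPKM in HuR and 24.2 FPKM in β-Gal cells, and the granule proteoglycan gene Srgn at 2.68 FPKM in HuR and 1.94 FPKM in β-Gal cells. Of 22 markers of cytotoxic T and natural killer cells, 12 were listed and 1 was compared. That was the chemokine gene Ccl5, at 8.02 FPKM in HuR and 5.27 FPKM in β-Gal cells. The other listed markers were below 1 FPKM in both libraries. Markers that were not listed have no value in either library, so their level in HuR cells is unknown. Nkg7, Klrd1, Cd8a, Ncr1 and Gzma were at 0 in the HuR library, where Gzmm stood at 37.8 FPKM. Summed over the 12 listed markers the level was 8.96 FPKM in HuR and 6.51 FPKM in β-Gal cells.

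Genes of the myostatin and activin axis, to which Wfikkn1 belongs, had 0 of 15 other compared members past 2-fold and a median log2 fold change of -0.30. Smad3, which carries the signal to the nucleus, stood at 42.6 FPKM in HuR and 51.1 FPKM in β-Gal cells, and its common partner Smad4 at 35.7 FPKM in HuR and 47.2 FPKM in β-Gal cells. Neither passed 2-fold. Wfikkn2, the closest relative of Wfikkn1, was below the 1 FPKM needed for comparison, at 0.6002 FPKM in HuR and 0.385 FPKM in β-Gal cells. Other Kunitz and WAP domain inhibitors had 0 of 7 past 2-fold with a median of -0.24. The most abundant were Ambp, which encodes bikunin, at 3852 FPKM in HuR and 3004 FPKM in β-Gal cells, and the leukocyte protease inhibitor gene Slpi at 589 FPKM in HuR and 450 FPKM in β-Gal cells.

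Among 8 other ESCRT-I genes, 1 was at least 2-fold higher and 0 lower. Vps37b, which encodes one of the alternative subunits, stood at 50.6 FPKM in HuR and 17.8 FPKM in β-Gal cells. Ubap1, the relative of Ubap1l, stood at 93.3 FPKM in HuR and 57.8 FPKM in β-Gal cells, and the core subunit gene Tsg101 at 94.1 FPKM in HuR and 93.0 FPKM in β-Gal cells. Partners of Zfp365 at the centrosome and in DNA damage had 0 of 10 higher and 1 lower. Pcm1, which organises centriolar satellites, stood at 1.07 FPKM in HuR and 5.02 FPKM in β-Gal cells.

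Of the osteoclast acidification and osteopetrosis genes set beside Ccdc154, 1 of 8 was higher and 1 lower. Ctsk, the collagen-degrading cathepsin of osteoclasts, stood at 5.16 FPKM in HuR and 0.252 FPKM in β-Gal cells, and Snx10, a sorting nexin gene mutated in human osteopetrosis, at 6.32 FPKM in HuR and 18.6 FPKM in β-Gal cells. Of 29 other motile cilia genes set beside 1700007K13Rik, 25 were listed and 4 were compared, with 0 past 2-fold. Cfap20, a protein of the ciliary base, stood at 14.98 FPKM in HuR and 11.3 FPKM in β-Gal cells, and Nme7 at 7.55 FPKM in HuR and 10.7 FPKM in β-Gal cells. Their median log2 fold change was 0.33, against 4.62 for 1700007K13Rik.

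The p53 targets held more genes past 2-fold. Zfp365 and 1700007K13Rik belong to this list, which was chosen with earlier results of these data known, so its count is a description. Of the 37 other members, which were all compared, 18 were higher in HuR cells by 2-fold or more and 0 lower. Of all compared genes, 5.35% were higher and 8.31% lower. The median log2 fold change of the 37 was 0.93, beside -0.17 for all compared genes. The 18 were Bbc3, Perp, Mdm2, Ppm1d, Plk2, Tnfrsf10b, Gtse1, Cdkn1a, Pmaip1, Fas, Pidd1, Ercc5, Ak1, Gdf15, Dcxr, Phlda3, Psrc1 and Cd80. Gtse1, a regulator of p53 in G2 phase, stood at 68.9 FPKM in HuR and 15.4 FPKM in β-Gal cells. Psrc1, a spindle protein gene, stood at 45.1 FPKM in HuR and 12.1 FPKM in β-Gal cells, and Pidd1, the core of a caspase-activating complex, at 36.9 FPKM in HuR and 11.0 FPKM in β-Gal cells. Cd80, a costimulatory ligand, was itself nearly silent in the β-Gal library, at 2.53 FPKM in HuR and 0.0961 FPKM in β-Gal cells. Pmaip1 and Ak1 are also among the 36 genes within the limits that define the 7.

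**Figure D3:**
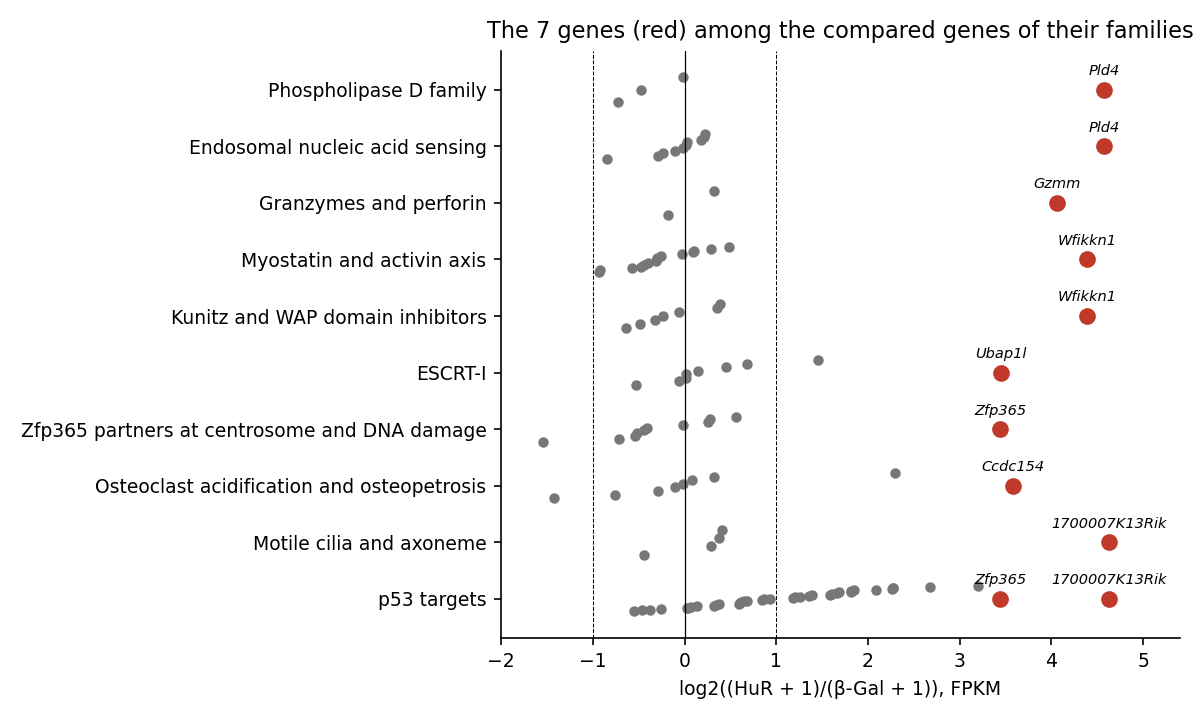
Log2 fold change, HuR over β-Gal with a pseudocount of 1 FPKM, of the compared genes in each family or pathway list, with the 7 genes in red and all others in grey. Dashed lines mark 2-fold. Apart from the p53 targets, of which 18 of 37 others lie past 2-fold, 4 grey points lie beyond the dashed lines.

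Markers of other cell types were set beside these values. Of all compared genes, 5.35% were higher past 2-fold and 8.31% lower, and the marker counts below are a description. Hepatocyte markers defined the culture, with Alb, serum albumin, at 27642 FPKM in HuR and 25353 FPKM in β-Gal cells. Of 10 such markers 0 were higher past 2-fold and 1 lower, the urea cycle gene Cps1 at 3.17 FPKM in HuR and 8.41 FPKM in β-Gal cells. Kupffer cell and macrophage markers, from cells that express Pld4, were higher in 4 of 8 compared genes and summed to 147 FPKM in HuR and 67.9 FPKM in β-Gal cells, 2.17-fold higher beside 54.6-fold for Pld4. The 4 were Cd68, Marco, C1qb and C1qc, with the lysosomal glycoprotein gene Cd68 at 90.4 FPKM in HuR and 39.97 FPKM in β-Gal cells and the scavenger receptor gene Marco at 14.8 FPKM in HuR and 5.55 FPKM in β-Gal cells. The part of these markers in the Pld4 difference was not tested. Of the plasmacytoid dendritic cell markers, which mark the cell type best known for Pld4, 10 were listed and 6 compared, of which 2 were higher past 2-fold and 1 lower. The higher ones were Ly6d at 58.8 FPKM in HuR and 26.3 FPKM in β-Gal cells and Il3ra at 69.2 FPKM in HuR and 22.7 FPKM in β-Gal cells, and the lower one was Klk1 at 0.138 FPKM in HuR and 1.79 FPKM in β-Gal cells. Irf8, Tcf4 and Bst2, the last at 689 FPKM in HuR and 648 FPKM in β-Gal cells, lay within 2-fold. Ccr9, Spib, Runx2 and Cox6a2 did not reach the 1 FPKM needed for comparison. They stood at 0.0369, 0.153, 0.0253 and 0.583 FPKM in HuR cells. In β-Gal cells they stood at 0.0178, 0.147, 0.0488 and 0.641 FPKM. Markers that were not listed have no value in either library. B cell and plasma cell markers summed to 3.35 FPKM in HuR and 9.60 FPKM in β-Gal cells, with 2 of 3 compared genes lower past 2-fold. They were Igkc at 0.851 FPKM in HuR and 5.43 FPKM in β-Gal cells and Pax5 at 0.265 FPKM in HuR and 1.53 FPKM in β-Gal cells. Ciliated cell and testis markers summed to 2.18 FPKM in HuR and 1.81 FPKM in β-Gal cells. In bulk RNA, more cells of a type and more RNA per cell cannot be told apart.

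The genes lie on 5 autosomes in GRCm38 (GENCODE M21). 1700007K13Rik lies on chromosome 2 at 28462001 to 28466332 on the minus strand, and Ubap1l on chromosome 9 at 65361041 to 65380377 on the plus strand. Zfp365 lies on chromosome 10 at 67886103 to 67912662 on the minus strand, and Gzmm on the same chromosome at 79689020 to 79695261 on the plus strand. Pld4 lies on chromosome 12 at 112760655 to 112768990 on the plus strand. Ccdc154 and Wfikkn1 both lie on chromosome 17, at 25162461 to 25171913 on the plus strand and at 25877628 to 25880858 on the minus strand.

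In 4 of the 7, another protein-coding gene ended at most 1500 bases upstream on the same strand, a distance set after the data had been seen. Clcn7, a lysosomal chloride transporter gene, ended 356 bases before Ccdc154, and Cdc34, a ubiquitin-conjugating enzyme gene, ended 621 bases before Gzmm. Rab40c, a small GTPase gene, ended 1255 bases before Wfikkn1, and Pdcd7, a minor spliceosome gene, ended 1397 bases before Ubap1l. Such an arrangement held for 5.10% of all 11100 compared protein-coding genes, for 5.93% of the 2025 that were as low in the β-Gal library, and for 9 of the 36 other genes within the same limits (25%).

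The upstream genes differed far less than the genes that follow them, by 1.06-fold to 2.25-fold. Clcn7 stood at 63.3 FPKM in HuR and 59.7 FPKM in β-Gal cells, so that the Ccdc154 level was 19.1% of it in HuR and 0.156% in β-Gal cells. Cdc34 stood at 346 FPKM in HuR and 267 FPKM in β-Gal cells, and Gzmm was at 10.9% of that level in HuR and 0.492% in β-Gal cells. Rab40c was at least 2-fold higher itself, at 33.2 FPKM in HuR and 14.8 FPKM in β-Gal cells, and Wfikkn1 exceeded it in HuR cells, at 150% of its level against 9.63% in β-Gal cells. Pdcd7 stood at 6.71 FPKM in HuR and 5.13 FPKM in β-Gal cells, with Ubap1l at 251% of its level in HuR and 12.3% in β-Gal cells. The tables hold 1 value per gene and no read positions, and whether reads beyond the end of an upstream gene were counted for the next gene was not tested.

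**Figure D4:**
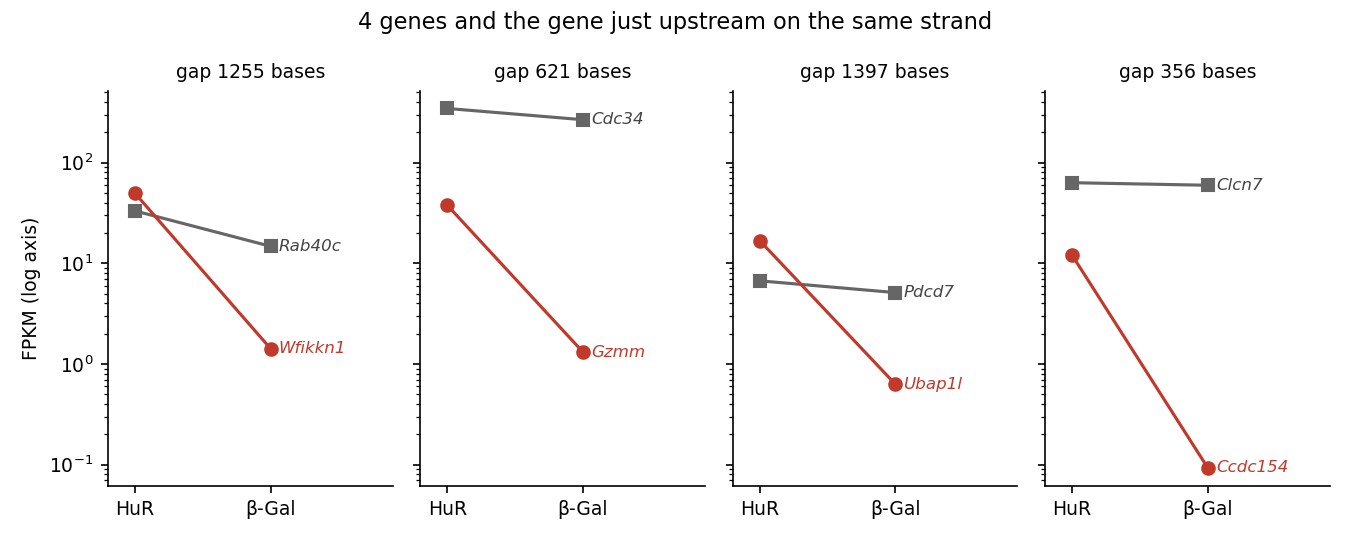
FPKM on a log axis, in the HuR library (left) and the β-Gal library (right) of each panel, for 4 of the genes (red circles) and the protein-coding gene that ends just upstream on the same strand (grey squares). The grey lines are nearly level or slope little, while the red lines drop steeply toward β-Gal; Wfikkn1 and Ubap1l lie above their upstream gene in HuR cells only.

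Most other neighbours lay within 2-fold, as did most compared genes, of which 5.35% were higher and 8.31% lower. Among the 2 nearest listed protein-coding genes on each side of each of the 7, 28 in all, 22 were compared, of which 3 were at least 2-fold higher and 1 lower. Besides Rab40c, the higher ones were Ahnak2, which ends 3203 bases from the end of Pld4 on the other strand, at 15.6 FPKM in HuR and 4.91 FPKM in β-Gal cells, and Ppp1r26, 6492 bases beyond 1700007K13Rik, at 1.52 FPKM in HuR and 0.213 FPKM in β-Gal cells. Arid5b, on the upstream side of Zfp365, was lower at 3.10 FPKM in HuR and 8.25 FPKM in β-Gal cells. Mettl26, which ends 458 bases from the end of Wfikkn1 on the other strand, stood at 84.3 FPKM in HuR and 79.7 FPKM in β-Gal cells. The long non-coding gene Gm26694 overlaps Wfikkn1 on the other strand and the pseudogene Gm17875 lies within Ubap1l. Neither was listed in the tables, and without a stated strand setting reads of overlapping genes cannot be separated.

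The principal coding transcripts of the 7 genes were mostly GC-rich with short 3′ UTRs. GC content was 47.6% in Zfp365 and 53.2% to 59.3% in the other 6, beside a median of 50.5% over 11098 compared protein-coding genes with a coding transcript. The 3′ UTR was 29 bases in Ccdc154, 62 in Wfikkn1, 83 in Ubap1l, 101 in Gzmm, 245 in 1700007K13Rik and 368 in Pld4, all below the median of 935 bases. Zfp365 was the exception with 2727 bases. Wfikkn1 has 2 exons and Ccdc154 has 17. The 36 other genes within the same limits had a median GC content of 56.0% and a median 3′ UTR of 281 bases.

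**Figure D5:**
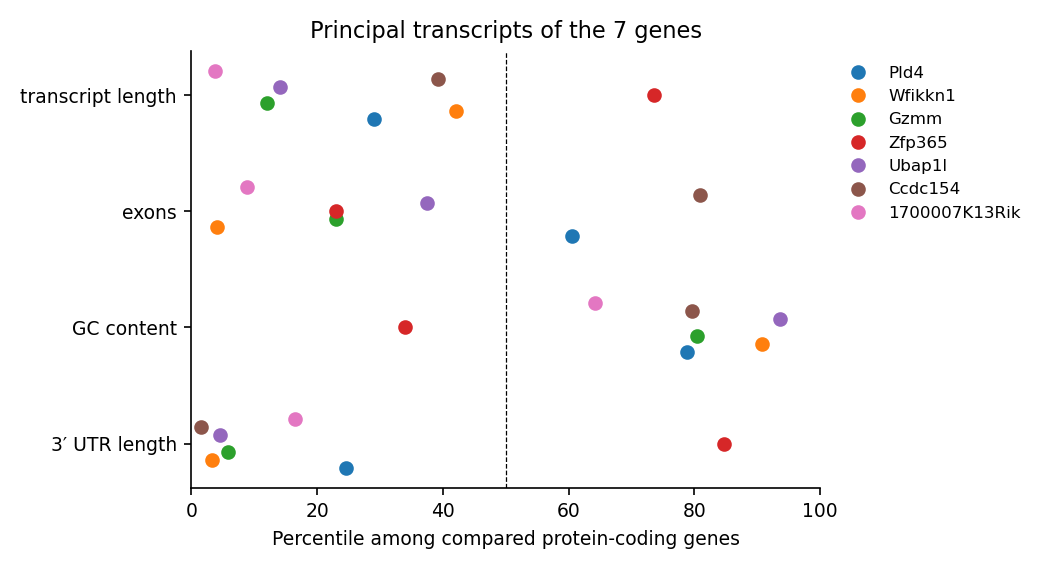
Percentile of each of the 7 genes among compared protein-coding genes for 4 properties of the principal coding transcript, 1 colour per gene. The dashed line marks the median, and 6 of the 7 genes lie to the right of it for GC content and to the left of it for 3′ UTR length, with Zfp365 on the opposite side in both.

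Motifs of the kind HuR is known to bind were looked for in these 3′ UTRs, read in the sense of the mRNA. They were ATTTA, the core of AU-rich elements, and TTTTT. Each was found in 1 of the 7, Zfp365 in both cases, while 65.0% of the compared protein-coding genes held at least 1 ATTTA and 73.6% at least 1 TTTTT. Zfp365 had 8 ATTTA matches, or 2.93 per kilobase beside a median of 1.21 per kilobase, and 10 TTTTT matches, or 3.67 per kilobase beside 3.72. Short 3′ UTRs leave little room for a match, and 38.9% of the 36 other genes held ATTTA. The absence of these letters from annotated 3′ UTRs says nothing of binding elsewhere in the RNA. One match in Zfp365, at base 744 of its 3′ UTR, is shown with 12 bases on each side and the motif in capitals.
Zfp365: cctccagggcctATTTAttcaggtctggg

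Promoters were available from RefSeq (GRCm38.p6) for 6 of the 7 genes, as windows from 250 bases before to 50 after the start site. They were searched for the p53 consensus, a pair of 10-base elements up to 13 bases apart, with the C and G of each core required. The consensus reads the same on both strands. The best match in 1700007K13Rik had 1 mismatch and that in Zfp365 had 2, while 0.627% of 32851 promoters held a pair with at most 1 mismatch and 4.09% a pair with at most 2. Wfikkn1 had 4 mismatches at best, Gzmm and Ubap1l 5 and Pld4 7, and 40.4% of all promoters held a pair with 4 or fewer. The TATA-like motif TATAAA, searched on both strands, was found in Zfp365 alone, beside 13.6% of all promoters. A match is a likeness of letters and not evidence of binding.

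The 2 promoters with the closest p53 matches are shown because both genes belong to the p53 target list, with the paired elements in capitals. In 1700007K13Rik (chr2:28466275-28466574, minus strand) the pair begins 20 bases into the transcript, and in Zfp365 (chr10:67912613-67912912, minus strand) it begins 85 bases before the start site. For comparison, the pair in a promoter of Cdkn1a, a textbook p53 target on chromosome 17, matched with 0 mismatches and is given alone. In another Cdkn1a promoter the best pair had 5 mismatches.
1700007K13Rik: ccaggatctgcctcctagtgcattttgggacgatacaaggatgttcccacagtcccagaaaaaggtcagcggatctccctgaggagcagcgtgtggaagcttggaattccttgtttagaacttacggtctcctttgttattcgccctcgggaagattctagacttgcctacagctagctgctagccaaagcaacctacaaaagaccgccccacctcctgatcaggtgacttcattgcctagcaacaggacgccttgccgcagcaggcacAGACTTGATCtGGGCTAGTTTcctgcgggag
Zfp365: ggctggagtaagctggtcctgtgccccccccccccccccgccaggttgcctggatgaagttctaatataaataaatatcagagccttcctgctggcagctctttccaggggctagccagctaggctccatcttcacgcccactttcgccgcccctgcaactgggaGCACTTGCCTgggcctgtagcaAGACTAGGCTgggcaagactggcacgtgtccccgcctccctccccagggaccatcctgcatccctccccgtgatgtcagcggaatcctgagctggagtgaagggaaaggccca
Cdkn1a: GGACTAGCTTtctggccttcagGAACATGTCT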

How the data were processed

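RNA from 2 libraries of cultured mouse hepatocytes, 1 per group, was sequenced. The authors deposited FPKM values, 1 per gene and library. The submitters' processing notes name TopHat2, HTSeq 0.6.1 and GRCm38, without roles. The annotation release, FPKM calculation and strand setting were not given in the sources used here. Identifiers were matched to GENCODE M21 (GRCm38), with 20133 of 20505 found. Library totals were found from the steps of FPKM times transcript length. With these totals 14329 genes (71.2%) lay within 0.02 of a whole read in both libraries. For Gzmm, Zfp365, Ccdc154 and 1700007K13Rik the annotated mean length gave whole reads. For Pld4, Wfikkn1 and Ubap1l the shortest whole-base length giving whole reads in both libraries was used (1978, 1301 and 1381 bases), so their true reads may be multiples and their intervals narrower. Lengths that are not whole bases were not tried. At the GENCODE mean length, which gave no whole reads for these genes, the intervals of Pld4 and Ubap1l were wider. No count test was run. Genes reaching 1 FPKM in HuR or β-Gal cells were compared, with a pseudocount of 1 FPKM and a call at 2-fold. The genes and lists were chosen with earlier results of these data known. The naming rule covered the 7, list genes past 2-fold or else the 2 most abundant, and 2 neighbours on each side. It also covered the 10 genes of like pattern with the highest HuR level and 3 genes on each side of the 10 FPKM limit. Not all neighbours were named, and other genes, among them Gzma, Prf1, Wfikkn2, Ubap1, Tsg101, Lag3, Dppa3 and Adig, were named outside this rule. Functions were tested on simulated data. Python 3.11.15, pandas 2.3.3 and SciPy 1.17.1 were used.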

Additional observations from a re-analysis of the deposited data

How the results depend on the processing

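The 7 genes stayed past 2-fold, higher in HuR cells, under all 5 alternatives tried. They were chosen on these same values and had ratios of 20.7-fold or more, so that count is a description and no support. Every alternative except the pseudocount of 5 raised their median. Their median log2 fold change of 4.07 was 4.94 with a pseudocount of 0.1, 2.76 with a pseudocount of 5, 4.25 with the median of all compared genes set to 0, 4.16 with both libraries rescaled to an equal FPKM total and 4.18 with upper quartile scaling. Single genes ranged from 1.75 to 5.98 over these 35 values, of which 13 lay beyond the counting interval, and 0 changed sign. The share of all compared genes called higher, 5.35% as reported, was 8.02% with a pseudocount of 0.1, 7.34% with the median set to 0, 5.44% after rescaling to an equal total, 4.74% with a filter at 5 FPKM, 3.37% with no filter and 2.01% with a pseudocount of 5. The 43 protein-coding genes within the limits became 66 after that rescaling, 52 with the median set to 0, 36 with the β-Gal limit at 3 FPKM, and 162 or 12 with the HuR limit at 5 or 20 FPKM. The number of the 7 with a gene upstream on the same strand was 1 within 500 bases, 2 within 1000 bases and 4 within 5000 bases, where 1.95%, 3.65% and 13.8% of all compared protein-coding genes had one. At the GENCODE mean length the interval of Pld4 ran from 33.9 to 97.4, that of Wfikkn1 from 26.7 to 46.0 and that of Ubap1l from 14.1 to 51.9. These last alternatives, and the lengths of principal transcripts, were chosen after seeing the data. Few reads in the β-Gal library, 4 for Ccdc154, limit each fold more than the HuR reads do. No paired analysis was possible because each group has 1 library.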
